A study of Mus musculus with 27 samples.

Results

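Bone marrow and lymph node were compared on the 6 arrays whose titles and tissue labels name these organs, 3 for each, out of 27 arrays that cover 9 mouse tissues. All mice were wild-type C57BL/6 males, 6 to 8 weeks of age, without further treatment. The marrow came from femurs according to the design text, and the site of the lymph nodes was not given. Total RNA was measured on a custom 1-colour array designed for glycan-related genes (enzymes, lectins and proteoglycans) and for cytokine, chemokine, growth factor and adhesion genes. Whether replicate arrays stand for different mice is not stated in the labels, and p-values therefore cover only the spread between arrays, which may be technical. With 1 probe set kept per gene, 573 mouse genes entered the comparison.

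Bone marrow is the organ in which blood cells form, and it holds a large pool of maturing neutrophils and monocytes. A lymph node collects lymphocytes from the blood through high endothelial venules, whose sialylated and sulfated mucins are bound by L-selectin. Inside the node, stromal cells secrete CCL21 and CXCL13, which bring CCR7-bearing T cells and dendritic cells and CXCR5-bearing B cells to their zones. In tissue RNA, a larger number of cells of a type and more transcript per cell cannot be told apart.

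Values are deposited intensities. A difference is bone marrow minus lymph node on the log2 scale with its standard error from limma, so that positive values are higher in bone marrow. A gene was called at a Benjamini-Hochberg adjusted p under 0.05 and an absolute difference of at least 1. The array medians over all probe sets lay between 221.5 and 234.9 in the 6 arrays. Across genes, arrays correlated at 0.972 to 0.981 within bone marrow, at 0.975 to 0.986 within lymph node and at 0.721 to 0.761 between the organs. The 839 human probe sets of the array, a rough measure of non-specific signal, had a median of 201.2 and a 95th percentile of 564.1 on these arrays. A fold with a level near that median on its lower side is a ratio of signals and not of transcripts.

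The labels were checked against defining genes. Ltf, Csf3r and Cxcr2 of neutrophils had their highest mean of all 9 tissues in bone marrow. Glycam1 of high endothelial venules, the lymphocyte receptors Ccr7 and Il7r and the B cell gene Fcer2a had theirs in lymph node. Of 3 measured progenitor markers none was called, with Cd34 at -0.53, Flt3 at -0.35 and Kit at 0.15. None of the 3 exceeded the human 95th percentile on average in either organ. Toward lymph node, 2 of the 3 had an adjusted p under 0.05 (limma) but a difference under the minimum size. Of erythroid genes, Epor alone was measured. Adipocyte genes were not measured, and of bone and cartilage genes Acan alone was, at 222, 226 and 174 in bone marrow and 201, 187 and 185 in lymph node, near the human probe set median.

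Of the 573 genes, 71 (12.4%) differed between the organs, 18 (3.14%) with higher levels in bone marrow and 53 (9.25%) with higher levels in lymph node. Counts of called members in the lists that follow are to be read beside these shares. Bone marrow was higher in 3 of 6 neutrophil markers, led by Ltf (28.9-fold), in some myeloid receptors and in the chemokines Cxcl2, Ccl3 and Ccl4. Lymph node was higher in the chemokines Ccl21b (37.7-fold), Cxcl13 (37.2-fold) and Cxcl12 (19.2-fold), in small matrix proteoglycans, in some vascular genes and in some genes of lymphocytes. At least 8-fold differences numbered 2 toward bone marrow and 12 toward lymph node. In all 71 genes the 3 arrays of one organ lay apart from the 3 of the other, as they did in 50.1% of all genes tested. The median difference over all genes was -0.03. Quantile normalization moved that median to 0.13 and gave 26 genes higher in bone marrow and 40 higher in lymph node. The higher organ exceeded the human 95th percentile in 15 of the 18 and 39 of the 53 genes.

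**Figure D1:**
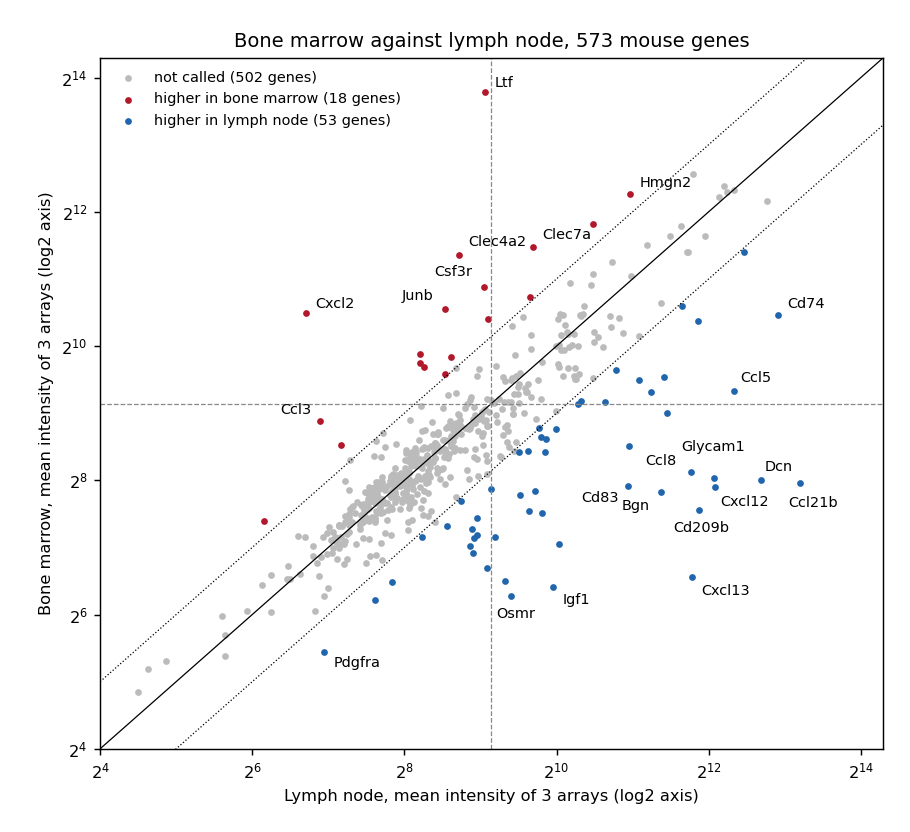
Mean deposited intensity of the 3 bone marrow arrays against the mean of the 3 lymph node arrays for 573 genes, both on log2 axes. The solid line marks equal levels, dotted lines a 2-fold difference and dashed lines the 95th percentile of the human probe sets (564.1). The 53 blue genes higher in lymph node outnumber the 18 red genes higher in bone marrow, and Ltf stands alone at the top at 14124.

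Ltf encodes lactoferrin, an iron-binding protein of neutrophil granules. It read 14644, 14527 and 13201 on the bone marrow arrays and 256, 692 and 654 on the lymph node arrays. The lowest bone marrow array was far above the highest lymph node array, and lymph node replicate 1 was low within its own group. The difference was 4.85 ± 0.36 (adjusted p = 7.82e-11). Csf3r, the receptor for granulocyte colony-stimulating factor, read 1177, 2368 and 2129 against 513, 597 and 481. Its groups did not overlap (1.78 ± 0.18, 3.43-fold), and bone marrow replicate 1 was the low array of its group. The other Csf3r probe set gave a difference of 4.58 (24.0-fold), with a lymph node mean of 57.6 where the chosen one had 530.3, and the mean of both probe sets gave 9.07-fold. Cxcr2, the receptor through which neutrophils follow CXC chemokines, read 665, 1209.7 and 881 against 406, 408 and 366 and was 2.27-fold higher in bone marrow (1.18 ± 0.17). Without bone marrow replicate 2 it lost its call at 0.96.

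Of the 6 measured markers of neutrophils and their precursors, Ltf, Csf3r and Cxcr2 were higher in bone marrow and none was higher in lymph node. Their median difference was 0.99 beside -0.03 for all genes. The siglecs Siglece (0.80) and Cd33 (0.43) and the C-type lectin Clec5a (0.16) were not called. Cd33 read 1218, 1685 and 1374 in bone marrow and 1063, 970.3 and 1129 in lymph node, so that its arrays did not overlap although the difference was small. The summed intensity of the 6 markers ranged from 18599 to 20876 in bone marrow and from 2971 to 3418 in lymph node, with Ltf as its largest term.

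Receptors of monocytes and macrophages went in both directions. Clec4a2, a myeloid C-type lectin, read 2142, 2963 and 2731 in bone marrow and 195, 509 and 559 in lymph node. Lymph node replicate 1 was again the low array, and the groups were well separated (2.76 ± 0.42, 6.79-fold). Clec7a, which encodes the beta-glucan receptor dectin-1, read 1995, 3144 and 3447 against 633, 804 and 1039 (1.78 ± 0.29). Ccr2, which monocytes need to leave the marrow, read 963, 1421 and 1695 against 392, 697 and 552 (1.31 ± 0.25), and its other probe set gave 1.85. Mrc1, the macrophage mannose receptor, went the other way with 198, 103 and 248 in bone marrow and 746, 851 and 1084 in lymph node (-2.36 ± 0.29, adjusted p = 2.97e-07). Of the 5 measured monocyte and macrophage markers, 2 were thus higher in bone marrow, 1 was higher in lymph node, and Clec10a (-0.48) and Cx3cr1 (0.02) were not called. Their summed intensity was 4255 to 6791 in bone marrow and 3303 to 4191 in lymph node.

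Bone marrow replicate 1 was the lowest of the 3 bone marrow arrays in 13 of the 18 genes, and lymph node replicate 1 the lowest of the 3 lymph node arrays in 10. Among the 53 genes higher in lymph node, these arrays were the lowest of their organ in 18 and 23. With bone marrow replicate 1 left out, 22 genes were higher in bone marrow, among them all 18. The labels name no batch for these arrays, so no value within a batch can be given.

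Cxcl2, a ligand of CXCR2 that draws neutrophils, had the next largest difference toward bone marrow. It read 1013, 1691 and 1612 in bone marrow against 71.8, 126 and 116 in lymph node (3.79 ± 0.20, 13.8-fold, adjusted p = 8.48e-14). All lymph node arrays were below the human probe set median. Ccl3 and Ccl4, inflammatory CC chemokines, were higher in bone marrow too. Ccl3 read 381, 449 and 587 against 92.4, 128 and 135 (3.97-fold), and Ccl4 read 339, 368 and 401 against 145, 145 and 141 (2.57-fold). Neither reached the human 95th percentile on average in bone marrow. Pf4, the platelet chemokine CXCL4, read 781, 854 and 839 against 251, 306 and 358 (1.45 ± 0.20). Its other probe set, at 63.4 and 60.8 on average, had a difference of 0.06 (limma, adjusted p = 0.770). The mean of both probe sets was not called (0.75). Of the 3 measured megakaryocyte and platelet markers, Pf4 was the 1 called, with Itga2b at 0.36 and Selp at -0.07.

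The other genes higher in bone marrow had varied roles. Junb, a subunit of the AP-1 transcription factor, read 1150.3, 1640.1 and 1725 against 368, 471 and 276 (4.08-fold). Lta4h, the enzyme that makes the neutrophil attractant leukotriene B4, read 3718, 3162 and 3967 against 1445, 1366 and 1485 (2.52-fold). Hmgn2, a nucleosome-binding protein, was 2.45-fold higher at 4907 ± 629.8 (SD, n = 3), and thymus was next of the 9 tissues with a mean of 4623. Igf1r, the receptor of insulin-like growth factor, was 2.92-fold higher with the chosen probe set. The other Igf1r probe set had a difference of 0.01 (limma, adjusted p = 0.964), and the mean of both was not called (0.78). Ugt1a6a, a UDP-glucuronosyltransferase with its peak in liver, was 3.14-fold higher at 939.8 ± 247 (SD, n = 3), and related Ugt1a transcripts may share its probes. The glypican Gpc1 (1.04) and Tnfrsf19 (1.25, at 168 against 71.4, both below the human median) completed the group, apart from a sialyltransferase described with the glycan enzymes. Gpc1 lost its call without bone marrow replicate 3 (0.91) or lymph node replicate 2 (0.99).

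Epor, the erythropoietin receptor, lay at the edge of the threshold. It read 847, 883 and 723 in bone marrow and 408, 414 and 402 in lymph node, with no overlap. The difference of 0.998 was just under the minimum size, and the other probe set gave 1.18. It was past the threshold with quantile normalization, median centring, array weights or averaged probe sets, and without bone marrow replicate 3 or lymph node replicate 2. Il1r1, the interleukin 1 receptor, lay as close to the threshold on the lymph node side (-0.999).

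**Figure D2:**
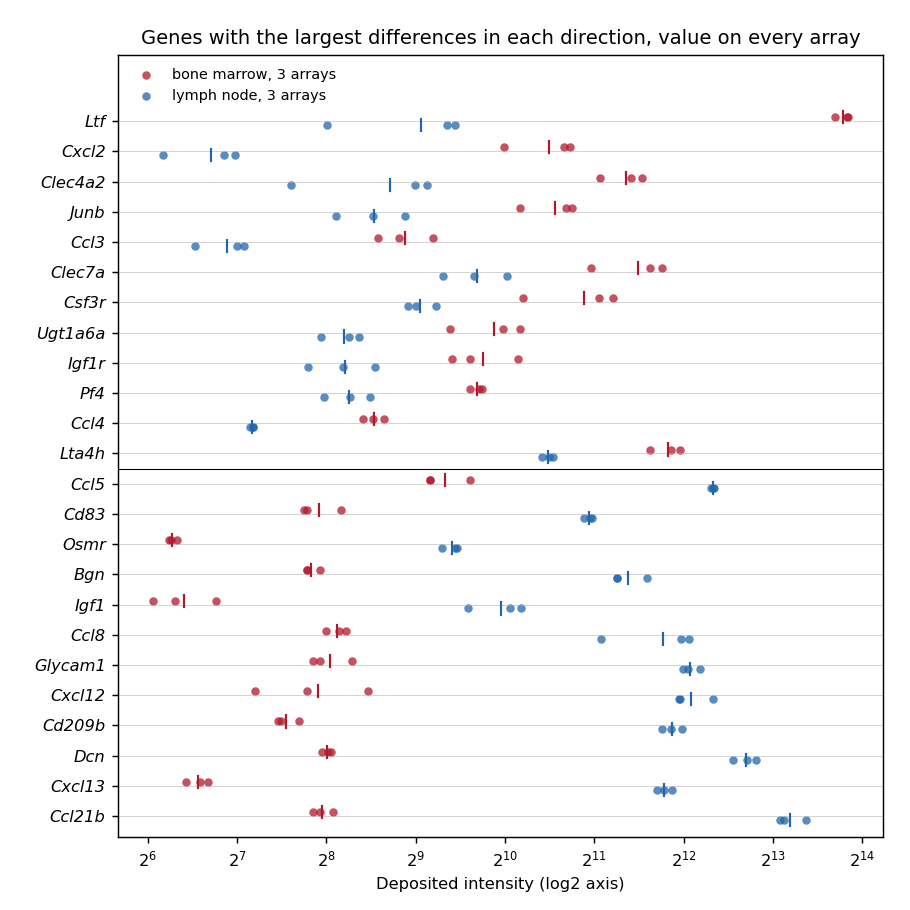
Deposited intensity on every array (points, log2 axis) and the mean of each organ (vertical bars) for the 12 genes with the largest called difference in each direction. The upper 12 genes are higher in bone marrow and the lower 12 higher in lymph node, and in none of them do red and blue points overlap.

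The sequence before the start site is shown for genes of each direction: for bone marrow the 2 genes with the largest differences, Ltf and Cxcl2, and for lymph node Cxcl13 and the venule gene Glycam1, chosen after their values were seen. Each is the 250 bases before the RefSeq start site (GRCm38.p6), 5′ to 3′ on the strand of the gene. Capitals mark matches on either strand to TTGCNNAA (bound by C/EBP factors of granulocytes), GAGGAA (the core bound by PU.1 of myeloid and B cells) or the NF-kB consensus.
Ltf, chr9:111019042-111019291, plus strand: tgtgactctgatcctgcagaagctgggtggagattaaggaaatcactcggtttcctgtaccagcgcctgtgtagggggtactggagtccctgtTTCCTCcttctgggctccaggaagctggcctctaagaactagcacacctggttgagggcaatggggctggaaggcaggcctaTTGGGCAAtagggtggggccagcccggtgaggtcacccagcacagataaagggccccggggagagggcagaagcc
Cxcl2, chr5:90903649-90903898, plus strand: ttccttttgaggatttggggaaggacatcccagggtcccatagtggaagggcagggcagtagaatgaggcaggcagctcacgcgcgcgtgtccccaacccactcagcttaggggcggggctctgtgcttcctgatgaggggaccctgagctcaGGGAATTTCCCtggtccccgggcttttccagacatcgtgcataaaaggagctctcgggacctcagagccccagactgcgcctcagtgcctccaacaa
Glycam1, chr15:103565082-103565331, minus strand: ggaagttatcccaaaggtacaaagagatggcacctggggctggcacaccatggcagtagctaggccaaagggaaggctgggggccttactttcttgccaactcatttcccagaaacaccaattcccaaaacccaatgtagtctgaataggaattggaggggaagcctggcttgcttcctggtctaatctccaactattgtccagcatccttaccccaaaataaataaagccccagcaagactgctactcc
Cxcl13, chr5:95956689-95956938, plus strand: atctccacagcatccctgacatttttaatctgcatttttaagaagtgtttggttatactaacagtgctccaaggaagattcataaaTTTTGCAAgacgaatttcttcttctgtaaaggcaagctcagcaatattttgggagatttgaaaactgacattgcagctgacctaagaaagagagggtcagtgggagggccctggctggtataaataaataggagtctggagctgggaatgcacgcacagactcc

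The Ltf window held a match to TTGCNNAA from 75 to 68 bases before the start and a match to GAGGAA from 157 to 152 bases before it. The Cxcl2 window held 2 overlapping matches to the NF-kB consensus between 97 and 87 bases before the start. The Glycam1 window held no match, and the Cxcl13 window held 1 match to TTGCNNAA. Among all 32851 RefSeq windows of this length, 9.56% held TTGCNNAA, 23.3% held GAGGAA and 7.25% held the NF-kB consensus. Counted over genes with any window, GAGGAA occurred in 9 of 16 genes higher in bone marrow, in 11 of 37 higher in lymph node and in 146 of 444 genes tested. TTGCNNAA occurred in 3 of 16, 6 of 37 and 51 of 444, and the NF-kB consensus in 2 of 16, 6 of 37 and 57 of 444. These counts are a description of letters, and no binding was measured.

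The homeostatic chemokines and their receptors held the 2 largest differences toward lymph node, those of Ccl21b and Cxcl13. Ccl21b, a CCL21 gene whose product guides CCR7-bearing cells, read 270.1, 243 and 231 in bone marrow and 10601, 8909 and 8623 in lymph node. Every lymph node array was far above every bone marrow array (-5.24 ± 0.15, adjusted p = 1.17e-18), and bone marrow had the lowest mean and lymph node the highest mean of the 9 tissues. Near-identical Ccl21 copies may share this probe set. Cxcl13, the attractant of follicular B cells, read 102, 96.3 and 85.8 against 3333, 3730.1 and 3507 (-5.22 ± 0.15, adjusted p = 1.17e-18), and its fold was 24.5 with quantile normalization. Cxcl12, the ligand of CXCR4 that is known for retaining blood precursors in marrow, read 220.2, 147 and 353 against 5127, 3955 and 3966. The marrow arrays were thus near the human probe set median and the lymph node arrays well above it (-4.26 ± 0.20, 19.2-fold). Bone marrow had the lowest Cxcl12 mean of all 9 tissues, and spleen had 5129.

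The receptors of these ligands were higher in lymph node as well. Ccr7 read 392, 375 and 329 against 1855, 2201 and 1903 (-2.44 ± 0.13), and Cxcr5 read 125, 138 and 128 against 452, 474 and 468 (-1.84 ± 0.11). Neither overlapped between the organs. Of the 7 measured homeostatic chemokines and receptors, 5 were higher in lymph node and none in bone marrow, with a median difference of -2.44. The gut and thymus pair Ccl25 (0.07) and Ccr9 (-0.64) was not called.

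**Figure D3:**
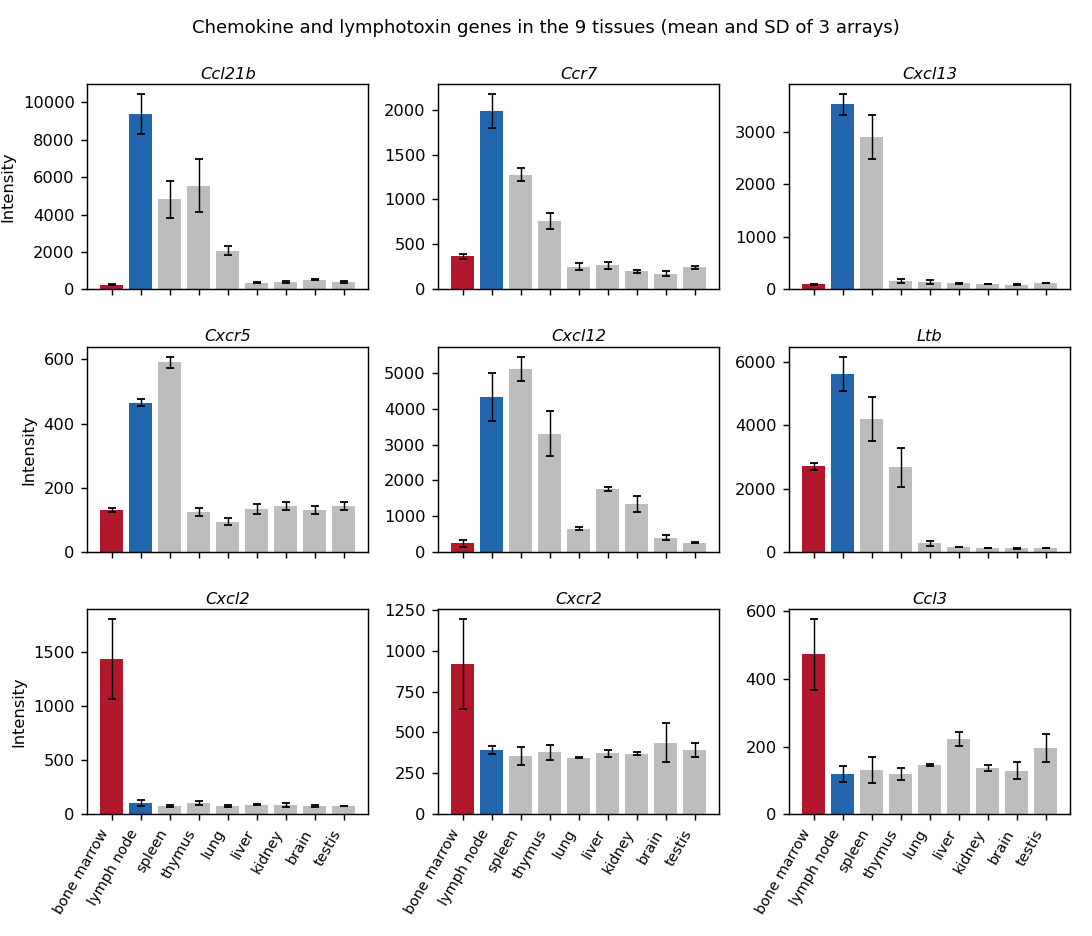
Deposited intensity (linear axes from 0) of 9 chemokine, receptor and lymphotoxin genes in the 9 tissues, with bars for the mean and lines for the SD of 3 arrays. Bone marrow is red and lymph node blue. Ccl21b, Ccr7, Cxcl13 and Ltb peak in lymph node, Cxcr5 and Cxcl12 in spleen, and Cxcl2, Cxcr2 and Ccl3 in bone marrow.

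Inflammatory chemokine ligands split between the organs. Of 24 measured, 4 were higher in bone marrow and 5 in lymph node, and the median difference was -0.23. Among all genes tested, 3.14% were higher in bone marrow and 9.25% in lymph node. Ccl8, a monocyte and T cell attractant, read 299, 281 and 256 in bone marrow and 2152, 4011 and 4270.1 in lymph node (-3.58 ± 0.18). The lymph node arrays were spread, with replicate 1 lowest, but all were above the bone marrow arrays. Ccl5, the T cell chemokine RANTES, read 572, 571 and 783 against 5076, 5137 and 5194 (8.09-fold). Its other probe set was dimmer and gave -0.92, under the size threshold, and the mean of both gave 3.91-fold. The interferon-inducible CXCR3 ligands Cxcl9 and Cxcl10 were 7.80-fold and 4.16-fold higher in lymph node, with Cxcl9 at 128, 136 and 135 against 874, 1012 and 1259. Their receptor Cxcr3 was not called (-0.35). Ccl12, a CCR2 ligand, was 2.86-fold higher in lymph node by its chosen probe set (-1.51), and the other gave -2.38, in contrast to Ccr2 itself.

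Among 12 measured receptors of inflammatory chemokines, Ccr2 and Cxcr2 were higher in bone marrow and Cxcr6 and Ccr6 higher in lymph node. The shares over all genes were 3.14% and 9.25%. Cxcr6, found on effector T and natural killer T cells, read 90.9, 95.9 and 125 against 495, 532 and 608 (-2.40 ± 0.17). Ccr6, found on B cells and a subset of T cells, read 159.9, 144 and 132 against 509, 478 and 501 (-1.78 ± 0.13). Both lymph node means, 545 and 496, lay below the human 95th percentile. Ccr1l1, an orphan relative of CCR1, was called as well (-1.37) at a low level of 90.0 against 229.6.

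Matrix and stromal genes were higher in lymph node almost throughout. Of 9 measured fibroblastic and stromal markers, 8 were higher in lymph node and none in bone marrow, and their median difference was -2.83. Among all genes tested, 9.25% were higher in lymph node. The 8 include Cxcl13 and Cxcl12 from the chemokines above, so the list is not separate from that result. Dcn, the collagen-binding proteoglycan decorin, read 265, 248 and 259 in bone marrow and 6004, 6675 and 7164 in lymph node (-4.68 ± 0.21, 25.6-fold). Its second probe set gave -4.77. Bgn, the related biglycan, read 219.5, 220.9 and 243 against 2449, 2437 and 3076 (11.6-fold, and 7.38-fold with quantile normalization). Fmod, fibromodulin, was 7.10-fold higher in lymph node at 642 ± 83.9 (SD, n = 3). Bone marrow had the lowest mean of all 9 tissues for each of Dcn, Bgn and Fmod.

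Lum, lumican, had the widest standard error of the group. It read 228, 231 and 228 in bone marrow and 430.4, 951 and 1149 in lymph node, where replicate 1 was less than the others but still above every bone marrow array (-1.76 ± 0.30). Vcam1, the adhesion molecule of stroma and endothelium that binds alpha4 integrins, read 738, 473 and 949 against 2120.3, 2371 and 2043 (-1.65 ± 0.19). Pdgfra, the receptor that marks mesenchymal cells, was called (-1.51) at 43.3 against 123, both below the human median, and lost the call with a floor of 64 (-0.94). Col14a1, a fibril-associated collagen, had a difference of -0.71 and was not called. The summed intensity of the 9 markers, Cxcl13 and Cxcl12 included, was 1658 to 2362 in bone marrow and 20490 to 21833 in lymph node. When the genes of lowest mean were left out, 5 of these markers remained, and all 5 had been called in the main fit too. Col14a1, the marker that was not called, was among those removed. This filter takes genes out and does not change the differences of the rest, so it is no separate test of the list.

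The wider list of 22 measured proteoglycan core proteins had Dcn, Bgn, Fmod and Lum higher in lymph node and Gpc1 higher in bone marrow, with a median difference of -0.003. With quantile normalization 2 were higher in bone marrow. The 25 measured enzymes of glycosaminoglycan synthesis and sulfation were not called by limma, and 2 had an unadjusted p under 0.05 toward bone marrow and 5 toward lymph node. After adjustment 3 of the 25 stayed under 0.05. Their differences ranged from -0.57 to 0.68, and the higher organ exceeded the human 95th percentile in 5 of the 25.

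Some growth factor genes were also higher in lymph node. Igf1, insulin-like growth factor, read 79.0, 66.7 and 109 in bone marrow and 769, 1060.3 and 1156 in lymph node (-3.56 ± 0.19). Igfbp5, a binding protein of that factor, was 3.43-fold higher in lymph node. Kitl, the stem cell factor that supports blood precursors, read 184, 140.1 and 142 against 538, 483 and 395 (-1.60 ± 0.16), and bone marrow had the lowest Kitl mean of the 9 tissues. Its receptor Kit was not called (0.15, 95% interval -0.12 to 0.43). Osmr, the oncostatin M receptor, read 75.7, 76.5 and 80.1 against 705, 696 and 629 (-3.13 ± 0.17), and its second probe set gave -3.37. Of 13 measured haematopoietic growth factors and receptors, Csf3r was the 1 higher in bone marrow and Kitl the 1 higher in lymph node. That count is near the 12.4% called among all genes.

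Among vascular genes, those called were higher in lymph node. Of 10 measured genes of high endothelial venules, Ccl21b and Glycam1 were called and the other 8 were not, with a median difference of -0.14 and members from -5.24 to 0.22. The summed level of the 10 was 2934 to 3101 in bone marrow and 15185 to 17942 in lymph node, where Ccl21b and Glycam1 made up most of it. Glycam1, which encodes a secreted mucin-like ligand for L-selectin, read 231, 312 and 245 in bone marrow and 4638, 4218 and 4063 in lymph node (-4.05 ± 0.14, 16.5-fold, adjusted p = 2.62e-17). Its second probe set gave 6.26-fold. Outside lymph node, the tissue means of Glycam1 went no higher than 313 in testis. Pecam1, an endothelial junction protein that leukocytes also carry, read 128, 139.7 and 162 against 674, 611 and 466 (4.05-fold). Emcn, the sialomucin endomucin, was 3.98-fold higher in lymph node, and Icam2 was 2.77-fold higher. Icam1, a ligand of leukocyte integrins, was 2.70-fold higher by its chosen probe set and 6.47-fold by the other. Of 6 measured endothelial markers, Pecam1, Emcn and Icam2 were called, and Thbd (-0.81), Tek (-0.74) and Cd34 (-0.53) were not. The summed level of the 6 was 1273 to 1504 in bone marrow and 3249 to 3670 in lymph node.

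The enzymes that build selectin ligands did not follow Glycam1 past the threshold. Of 11 measured, none was called by limma, where 12.4% of all genes tested were called. Chst4 was the 1 with an unadjusted p under 0.05, and it passed the adjusted p too. Chst4, the sulfotransferase of high endothelial venules, read 206, 196 and 135 in bone marrow and 337, 298 and 275 in lymph node, without overlap but under the size threshold (-0.78 ± 0.17). Fut7, which adds the fucose of sialyl Lewis x and acts in leukocytes as well as in venules, read 386, 433 and 536 against 383, 386 and 405 (0.19, 95% interval -0.06 to 0.45). Gcnt1, which starts core 2 branches, had a difference of 0.05 (-0.21 to 0.31). In 2 of the 11 enzymes the higher organ exceeded the human 95th percentile. Of the selectins and carriers, Glycam1 and Emcn were called of 8 measured. Selplg, which encodes the neutrophil and lymphocyte ligand PSGL-1, read 2185, 3491 and 3872 in bone marrow and 3813, 4244 and 3807 in lymph node and overlapped. Cd44, a hyaluronan receptor that can carry selectin ligands, read 4749.9, 7442 and 5970.1 against 3089.6, 3513 and 4043, a difference of 0.76 under the size threshold that passed it with quantile normalization.

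Several genes of lymphocytes and antigen presentation were higher in lymph node. Cd83, found on mature dendritic cells and activated lymphocytes, read 220.8, 287 and 216 in bone marrow and 1978, 1894 and 2009.8 in lymph node (8.20-fold). Cd74, the invariant chain that accompanies MHC class II, read 1805, 1333 and 1105 against 8468, 7827 and 6853 (5.55-fold). Bone marrow replicate 1 was highest for Cd74 within its group, as it was for the B cell gene Fcer2a. Fcer2a, the low-affinity IgE receptor CD23 of mature B cells, read 684, 503 and 352 against 2965, 2547 and 2902 (5.66-fold, 3.60-fold with quantile normalization), and its second probe set gave -2.72. Il7r, the interleukin 7 receptor of T cells and B cell precursors, read 817, 682 and 734 against 2869.7, 2929.8 and 2347 (3.64-fold, and 2.38-fold with quantile normalization). The T cell adhesion gene Cd2 was 3.81-fold higher in lymph node, and 2.50-fold with quantile normalization.

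Further lymphocyte genes had smaller differences. Cd48, a ligand of the receptor CD244, was 2.86-fold higher in lymph node, and Cd27, a costimulatory receptor with its peak in thymus, 2.35-fold (3.54-fold by its other probe set). Ltb, lymphotoxin beta, read 2639, 2826 and 2632 in bone marrow and 6250.2, 5432 and 5223 in lymph node. It was high in both organs, with a difference close to the threshold (-1.06 ± 0.16) that it missed without lymph node replicate 1 (-0.98), with quantile normalization (-0.87) or with median centring (-0.93). Il2rb, the interleukin 2 receptor beta chain of T and natural killer cells, was 2.27-fold higher, Klrd1, the CD94 subunit of natural killer cell receptors, 2.31-fold, and Itgae, the integrin alphaE of epithelium-associated T cells, 3.36-fold. Quantile normalization removed the calls of Cd27 (-0.84), Il2rb (-0.79) and Klrd1 (-0.86). Of 23 measured genes of the tumour necrosis factor family and costimulation, 5 were higher in lymph node and none in bone marrow, with a median difference of -0.42, and the 5 were 3 with quantile normalization. Of 34 interleukins, interferons and receptors, Il7r and Il2rb were called, with a median of 0.01. Among all genes tested, 12.4% were called and 9.25% were higher in lymph node, both larger shares than in the 34. Without lymph node replicate 3, 4 of the 34 were called, and with quantile normalization 1.

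The marker lists of lymphoid cells hold several of the genes just described and are no separate evidence. In lymph node, 2 of 4 B cell markers, 2 of 4 T cell markers, 1 of 3 natural killer cell markers and 1 of 8 dendritic cell markers were higher. No member of these lists was called higher in bone marrow. Cd72 and Cd22 of the B cell list and Cd40lg and Il2ra of the T cell list were not called. Of the T cell markers, 1 had an unadjusted p under 0.05 (limma) toward bone marrow, at a difference of 0.20. By calls, the share of the dendritic cell list is near the 9.25% of all genes. Without the minimum difference, 7 of its 8 markers had an adjusted p under 0.05 (limma), all toward lymph node. On that measure, 136 of the 573 genes were higher in lymph node. With averaged probe sets, 2 of the 8 dendritic cell markers were called. The natural killer cell call was lost with quantile normalization. Summed levels in bone marrow against lymph node were 5577 to 6467 against 8054 to 8981 for B cell markers and 1625 to 1772 against 4853 to 5695 for T cell markers. They were 1003 to 1210 against 1599 to 1856 for natural killer cell markers and 2293 to 2485 against 4846 to 4911 for dendritic cell markers. Their part in the differences of single genes was not tested. The B cell sum was carried by the chosen Cd22 probe set, which read 5001 on average in bone marrow and 4834 in lymph node, while its other probe set differed between the organs by -2.71.

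Lectins of macrophages were included among the genes higher in lymph node. Cd209b, the SIGN-R1 lectin of marginal zone and medullary macrophages, read 176, 179 and 207 in bone marrow and 3471, 4045 and 3713 in lymph node (-4.32 ± 0.14, 20.0-fold). Spleen, with a mean of 458, was the next tissue. Cd209e, from the same gene cluster, was 2.37-fold higher in lymph node at 379 ± 24.8 (SD, n = 3). Siglec1, which marks macrophages of the lymph node sinus, read 68.3, 70.0 and 59.2 against 69.2, 84.9 and 74.0, all below the human median and overlapping. Of 30 measured C-type lectins and collectins, 2 were higher in bone marrow (Clec4a2 and Clec7a) and 5 in lymph node (Cd209b, Fcer2a, Mrc1, Cd209e and Klrd1), with a median of 0.10. The shares over all genes were 3.14% in bone marrow and 9.25% in lymph node. Of 22 integrins and adhesion molecules, 6 were higher in lymph node and none in bone marrow: Pecam1, Itgae, Vcam1, Icam2, Icam1 and Itga6. Itga6 lost its call with quantile normalization (-0.77) or median centring (-0.92) and without lymph node replicate 1 (-0.96) or replicate 2 (-0.96).

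Glycosphingolipid enzymes differed at adjoining steps of the pathway. Glucosylceramide, made by Ugcg, is extended to lactosylceramide, from which separate enzymes start the ganglioside, lacto and globo series. St3gal5, which makes the ganglioside GM3, read 1665, 1666 and 1754 in bone marrow and 809, 815 and 780.0 in lymph node (1.08 ± 0.11, 2.12-fold). Bone marrow had the highest St3gal5 mean of the 9 tissues and lymph node ranked 8. B4galnt1, the next enzyme, which makes GM2 and GD2, went the other way with 550.0, 499 and 697 against 1380.5, 1135 and 1309 (-1.14 ± 0.13), and its second probe set gave -1.37. Ugcg read 417, 473 and 418 against 1089, 1028 and 938 (-1.22 ± 0.12). B3gnt5, which starts the lacto series, read 148, 143 and 138 against 284, 296 and 323 (-1.07 ± 0.16), and B3galnt1, the globoside synthase, read 71.8, 59.7 and 90.7 against 164, 203 and 223 (-1.42 ± 0.20).

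In all, 1 of 17 measured glycosphingolipid enzymes was higher in bone marrow and 4 were higher in lymph node, with a median of -0.05. The opposite directions of St3gal5 and the other 4 held under each scaling tried, but the sizes did not. With quantile normalization St3gal5 and B3galnt1 kept their calls, and Ugcg (-0.78), B4galnt1 (-0.77) and B3gnt5 (-0.94) were under the size threshold. B3gnt5 also missed it with median centring (-0.94) and with an offset in place of the floor (-0.99). B3gnt5 and B3galnt1 were below the human 95th percentile in both organs. The lactosylceramide synthases B4galt5 (0.08) and B4galt6 (0.11) were not called.

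**Figure D4:**
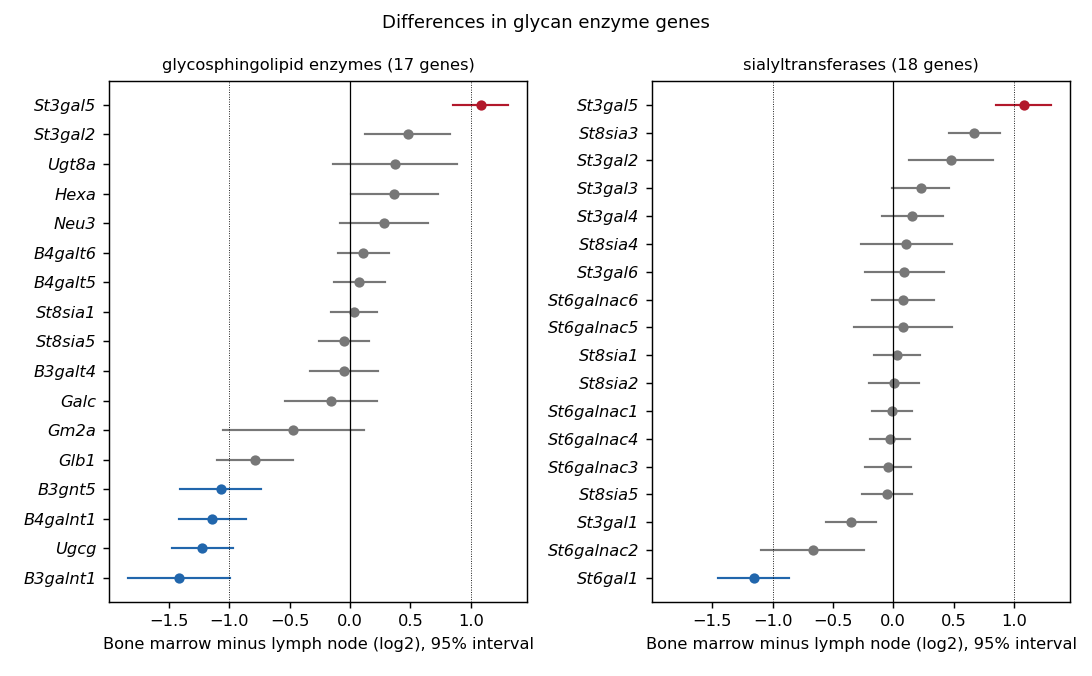
Bone marrow minus lymph node (log2) with its 95% interval from limma for 17 glycosphingolipid enzymes (left) and 18 sialyltransferases (right). Red genes were called higher in bone marrow, blue genes higher in lymph node, and grey genes were not called; dotted lines mark a difference of 1. St3gal5, which stands in both panels, is the 1 red gene.

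Among 18 measured sialyltransferases, St3gal5 was higher in bone marrow and St6gal1 in lymph node, and the median difference was 0.05. Such a count is near the 12.4% called among all genes. St6gal1, which adds alpha2,6-linked sialic acid to N-glycans and so makes the ligand of CD22, read 443, 373 and 382 against 855, 819 and 997 (-1.16 ± 0.14). Its other probe sets gave -0.33 and -1.38, the mean of all was -0.96, and quantile normalization gave -0.78, so that the call depended on the setting. Cmah, which converts the sialic acid Neu5Ac to the Neu5Gc that mouse CD22 prefers, read 255, 225 and 224 against 563, 635 and 499 (-1.27 ± 0.16, 2.40-fold), with lymph node the highest of the 9 tissues. St8sia4, the polysialyltransferase of blood cells, had similar levels of 1125, 1485 and 1666 and 1215, 1322 and 1380.1 (0.11, 95% interval -0.26 to 0.48). St8sia3 read 861, 867 and 704 against 534, 511 and 477 and was under the size threshold (0.67).

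Other glycan enzyme families had few or no calls by limma. Of all genes tested 12.4% were called, and at that share short lists would hold few calls as well. None of 11 fucosyltransferases was called, with 3 at an unadjusted p under 0.05 toward bone marrow and 2 toward lymph node and differences from -0.33 to 0.57. After adjustment 1 stayed under 0.05. No fucosyltransferase exceeded the human 95th percentile on average in either organ, so the missing calls say little about expression. None of 8 N-glycan branching and processing enzymes was called (0 and 2 at an unadjusted p under 0.05, and 2 in all after adjustment). The same held for 9 mucin O-glycan enzymes (1 and 4, and 4 in all after adjustment), none of them above the human 95th percentile on average. Galnt3, an initiating enzyme of mucin O-glycans, had the largest difference of the latter (0.97) and was called with median centring, quantile normalization or array weights, and without bone marrow replicate 1 or lymph node replicate 3. Of 19 lysosomal glycan-degrading enzymes none was called (3 and 5, and 3 in all after adjustment), and the beta-galactosidase Glb1 had -0.79. Galns, a sulfatase of keratan sulfate (0.87), was called without bone marrow replicate 1. Ctsa, cathepsin A, which protects that enzyme and the sialidase Neu1 in the lysosome, was called at -1.07 and lost its call with quantile normalization (-0.40), median centring (-0.94), without bone marrow replicate 1 (-0.92) or without lymph node replicate 3 (-0.995). Of 27 nucleotide sugar and sulfate donor genes, Cmah and the N-acetylglucosamine kinase Nagk (-1.06) were higher in lymph node. Nagk lost its call with quantile normalization (-0.86), median centring (-0.93), without bone marrow replicate 1 (-0.93) or lymph node replicate 3 (-0.97).

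Galectins, siglecs and the growth factor families had 1 call in all, where 12.4% of all genes tested were called. Of 4 measured galectins, Lgals8 was 2.22-fold higher in lymph node and lost its call with quantile normalization (-0.76). None of 6 siglecs was called by limma, with 3 at an unadjusted p under 0.05 toward bone marrow and 0 toward lymph node. These 3 also passed the adjusted p. Cd22 was counted here by its chosen probe set (0.05), while its other probe set gave -2.71. With averaged probe sets 1 of the 6 siglecs was called, toward lymph node. None of 24 genes of the transforming growth factor beta superfamily was called. At an unadjusted p under 0.05 there were 3 toward bone marrow and 1 toward lymph node, and 3 in all after adjustment. Tgfb1 (0.92) was called with quantile normalization or median centring and without bone marrow replicate 1 or lymph node replicate 1. None of 47 fibroblast growth factor and Wnt genes was called (6 and 3, and 5 in all after adjustment), with differences from -0.31 to 0.38. The higher organ exceeded the human 95th percentile in 3 of these 47 and in 2 of the 24 transforming growth factor beta genes. At such levels a missing call says little about expression.

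The other 7 tissues place both organs. For the 18 genes higher in bone marrow, bone marrow was the highest of the 9 tissues in 14, and lymph node was the lowest in none. The exceptions were Pf4, Igf1r, Ugt1a6a and Tnfrsf19, which peaked in spleen, kidney, liver and lung. For the 53 genes higher in lymph node, lymph node was the highest tissue in 30 and bone marrow the lowest in 10. Both held for Ccl21b, Dcn and Fmod. Lung had the highest mean for 10 of the 53 and spleen for 6. On the log2 scale, spleen lay nearer to lymph node than to bone marrow in 42 of the 53 and in 16 of the 18. Thymus lay nearer to lymph node in 21 of the 53 and in 17 of the 18. These are descriptions of means, and the shares for spleen and thymus were not tested.

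Each mean rests on 3 arrays, and the spread was estimated over all 27. The median 95% interval of a difference reached 0.28 to either side. The genes above the median level with the smallest differences were St6galnac1, Tnfsf12, Ywhab, St8sia2 and Gaa, each between -0.011 and 0.014. Of these, Ywhab had an interval of -0.34 to 0.35. Another 128 genes passed the adjusted p but not the minimum difference, 45 of them toward bone marrow and 83 toward lymph node. Of the 71 called genes, 18 had further probe sets, and all 19 of those went in the same direction, 14 of them past the threshold.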

How the data were processed

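The deposited table holds 1 linear intensity per probe set and array, made by the authors from a 1-colour biotin-labelled array per the labels. How the authors summarised, background-corrected and scaled them is not given in the sources used here. Symbols came from the platform's annotation table and were matched by gene identifier to RefSeq (GRCm38.p6). Of 1813 probe sets, 702 matched 573 mouse genes, 839 were human and 248 had no symbol. Values under 16 were raised to 16 and log2 taken, and the probe set with the highest mean over 27 arrays was kept. limma 3.58.1 (R 4.3.3) fitted a mean for each of the 9 tissues on the 27 arrays together, and bone marrow minus lymph node was tested with Benjamini-Hochberg adjustment over 573 genes. On simulated arrays for this contrast (573 genes, 200 changed), 100% of genes changed by 1.5, 98% by 2 and 100% by 3 on the log2 scale were called, 0% of those changed by 0.5, and 0 of 373 unchanged genes. The 0% and the 0 follow largely from the minimum difference of 1. Sizes near 1 were not simulated, so the check does not cover calls close to that limit.

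The comparison, the 41 gene lists (16 of cell type markers) and the rule for named genes were chosen with earlier results of these data known. The rule named the 12 non-overlapping called genes with the largest difference in each direction, up to 4 called members of each list, measured cell type markers, selectin ligand, sialyl- and fucosyltransferase genes called or above the human 95th percentile, and the 5 smallest differences among genes above the median. Other genes in the text were chosen after their values were seen. Motifs were searched with the same script in every RefSeq window. Alternatives are listed in the closing section. Title numbers were not used to pair the arrays in the main fit, and whether they mark pairs was not settled. Same-numbered arrays of the 2 organs correlated in their deviations at 0.26, 0.03 and 0.29, and differently numbered ones at -0.33 to 0.11.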

Additional observations from a re-analysis of the deposited data

How the results depend on the processing

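With adjusted p alone and no minimum difference, 63 genes were higher in bone marrow and 136 in lymph node, and limma's treat against a difference of 1 left 6 and 34. Leaving out 1 array at a time gave 18 to 22 genes higher in bone marrow and 51 to 56 higher in lymph node. The other settings stayed within 1.5 times of 18 and 53: quantile normalization 26 and 40, median centring 24 and 47, the genes of lowest mean left out (382 tested) 12 and 39, a floor of 64 18 and 52, an offset of 16 without a floor 18 and 51, averaged probe sets 18 and 54, only the 6 arrays 18 and 53, trend and robust settings 18 and 53, array weights 21 and 57, and the human 95th percentile as a further condition 15 and 39. The title number as a replicate block gave 18 and 53, the same genes. Bone marrow replicates 1 and 3 correlated best with the same-numbered lymph node array, and replicate 2 with lymph node replicate 1. Of the 71 called genes, 53 kept their call under all 16 alternatives of scaling, filter, floor, probe set, model and array that tested them, and 18 lost it under at least 1. These 16 do not include treat, adjusted p alone or the human 95th percentile condition. No called gene changed direction. Median centring moved the median difference of all genes from -0.03 to 0.10. With quantile normalization the list medians of N-glycan (0.08), glycosaminoglycan (0.14), glycosphingolipid (0.17), lysosomal (0.06), proteoglycan (0.18), inflammatory chemokine receptor (0.13) and transforming growth factor beta genes (0.11) turned from below to above 0. The median of all genes did so too (0.13), so these turns are not particular to the lists. Levels near the human probe set median limit the folds of 4 genes higher in bone marrow and 21 higher in lymph node, whose lower organ lay below it.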

Other observations

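The probe sets of Cd22, the inhibitory siglec of B cells, gave different values. The chosen one had tissue means of 2086 to 5423 and a difference between bone marrow and lymph node of 0.05. The other read 130.1 ± 19.2 in bone marrow, 850.2 ± 83.6 in lymph node and 838 ± 98.2 in spleen (SD, n = 3), and 65.6 to 97.4 in the remaining tissues, with a difference of -2.71. The second Csf3r probe set read 1428 ± 617 in bone marrow (SD, n = 3) and had means of 13.96 to 77.8 elsewhere, whereas the chosen one had 429.8 to 619.6 outside bone marrow. The second Itgax probe set, for the integrin CD11c of dendritic cells, gave -1.86 where the chosen one gave -0.83.

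Of the 839 human probe sets, 7 (0.834%) passed the same threshold between the organs. IGF1 (-2.06), ITGA6 (-1.08) and LTB (-1.01) were higher in lymph node and LTA4H (2.02) in bone marrow, each in the direction of its called mouse gene. LGALS1 (-1.69), RPL11 (-1.20) and ACTB (1.003) had no mouse gene of that symbol among the genes tested. LGALS1 encodes galectin-1, for which these human probes read 774 on average in bone marrow and 2262 in lymph node.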
